A study of Mus musculus with 103 samples.

Results

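The olfactory pit and the otic vesicle are the cup and the sac that form when the nasal and ear placodes, thickened patches of head ectoderm, sink inwards. Laser-captured pits of E10.5 CD1 mouse embryos (4 libraries) were compared here with laser-captured vesicles of E9.5 CD1 embryos (6 libraries). The samples were taken by the region and stage in their titles, and make up 10 of the 103 samples of an atlas of the early mouse face. No allele, transgene or treatment is given for any group: all embryos were from the outbred CD1 stock, frozen, cryosectioned and laser-captured. RNA was amplified, and each sample was hybridised to its own whole-transcript array. Surface ectoderm and neuroepithelium captured at both stages gave the stage difference in other tissues: E10.5 maxillary arch epidermal ectoderm (4 libraries), E9.5 epidermal ectoderm (7), E10.5 control neuroepithelium away from the facial prominences (4) and E9.5 neuroepithelium (5). The labels do not tie libraries to embryos, so the p-values measure the spread between libraries, which may share an embryo.

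Placodes form in a band of ectoderm around the anterior neural plate that expresses regulators of the sine oculis and EYA families. The olfactory placode lies at the front, where Pax6, Six3, Otx2, Fezf1 and DLX genes are active, and gives rise to olfactory sensory neurons and to neurons that migrate towards the forebrain. The otic placode lies beside the hindbrain, is induced by FGF signals, uses Pax2, Pax8, Gata3, Gbx2, SOX9 and SOX10, and later makes the inner ear epithelium, its overlying matrix and the cochleovestibular neurons. Both epithelia release neuroblasts, for which the proneural factors Neurog1 and Neurod1 are known.

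Each value below is the log2 of the authors' ratio of a probe set to their baseline, so it compares libraries for 1 gene and gives no level between genes. Calls are those of limma's moderated test with a Benjamini-Hochberg adjusted p below 0.05 over all genes, and the spread was estimated over 102 libraries of 22 groups. Of 19938 genes, 97 were higher in the pit (0.487%) and 82 lower (0.411%), 179 in all (0.898%). The median difference over all genes was -0.02. In the short gene lists below, 0 or 1 call is too few to set a list apart from these shares. In 76 of the 179 the 4 pit and 6 vesicle libraries did not overlap (48 of the 97 higher and 28 of the 82 lower), and over all genes 1.69% did not overlap. When the spread was estimated from these 10 libraries alone, 1 gene was called by limma, Psat1 (adjusted p 0.037; 0.075 when vesicles 3 and 5 were also left out and 0.32 with the replicate number as a block), and 1336 passed an unadjusted p of 0.05 against 2019 (10.1%) in the fit over all groups. The calls below therefore rest on a spread shared with the other regions. Where a gene varied more in the pit or vesicle than in most other regions, its p-value understates the spread of the compared libraries.

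Region and stage differ together between pit and vesicle and cannot be told apart in this comparison alone. Whether a smaller share of cells or less RNA per cell lies behind a low value cannot be told apart either in captured tissue. Without vesicle library 4 the calls numbered 87, without vesicle library 3 they numbered 301, without pit library 2 they numbered 284 and without pit library 1 they numbered 116. Of 61 called genes picked by the naming rule or after their values were seen, not all of them described here, 19 were called with each of the 10 libraries left out in turn.

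The label of the vesicle was checked first, because 2 of its libraries stood apart. Epcam, an adhesion molecule of epithelia, lay between 3.69 and 3.97 in the pits and between 3.66 and 4.16 in vesicle libraries 1, 2, 4 and 6, but at -0.21 in vesicle 3 and -1.46 in vesicle 5. Krt8, a keratin of simple epithelia, lay at 3.04, 2.67, 2.82 and 2.83 in vesicles 1, 2, 4 and 6, and at -0.11 and -2.23 in vesicles 3 and 5. Dlx5, a homeobox gene of both placodes, lay at -1.62 and -2.49 in vesicles 3 and 5 and between 2.11 and 2.95 in the other 4. The epithelial genes were thus at pit level in 4 vesicle libraries and far below it in the other 2.

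Some genes of the eye field and forebrain were high in these libraries, more of them in vesicle 5 than in vesicle 3. Rax, a regulator of the eye field, was at 4.04 and 5.05 there and between -0.37 and 0.38 in the other 4 vesicles, and its highest group mean in the atlas was in E8.5 neural epithelium outside the floor plate. Vesicle 5 also had Pax6 at 4.67, Fezf1 at 4.75 and Fezf2 at 2.52, while vesicle 3 had them at 1.01, 0.50 and 0.16. Otx2 was at 1.78 in vesicle 3 and 2.97 in vesicle 5 against -0.97 to -0.60 in the others. The mean of 14 forebrain and midbrain markers was 0.67 and 0.61 in vesicles 3 and 5, and between -0.27 and 0.27 in the other 4. The 17 surface ectoderm markers averaged 0.10 and -0.36 in these 2 libraries and 1.43 to 1.85 in the other 4. The 19 otic regulators described below averaged 0.44 in vesicle 3, above every pit (-0.08 to 0.14), and -0.06 in vesicle 5, against 0.91 to 1.49 in the other 4 vesicles. The epithelial and surface ectoderm genes thus go against the otic label in both libraries, and the otic regulators in vesicle 5. The main comparison is given with both libraries and without them, as 4 pit against 4 vesicle libraries, as are the genes for which this ends a call or moves the difference by over 1.5 times. The epithelial, forebrain and otic genes of this check are those that set the 2 libraries apart. Leaving the libraries out thus moves the differences of these genes in a direction set beforehand, and their calls in 4 against 4 are no separate support.

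**Figure D1:**
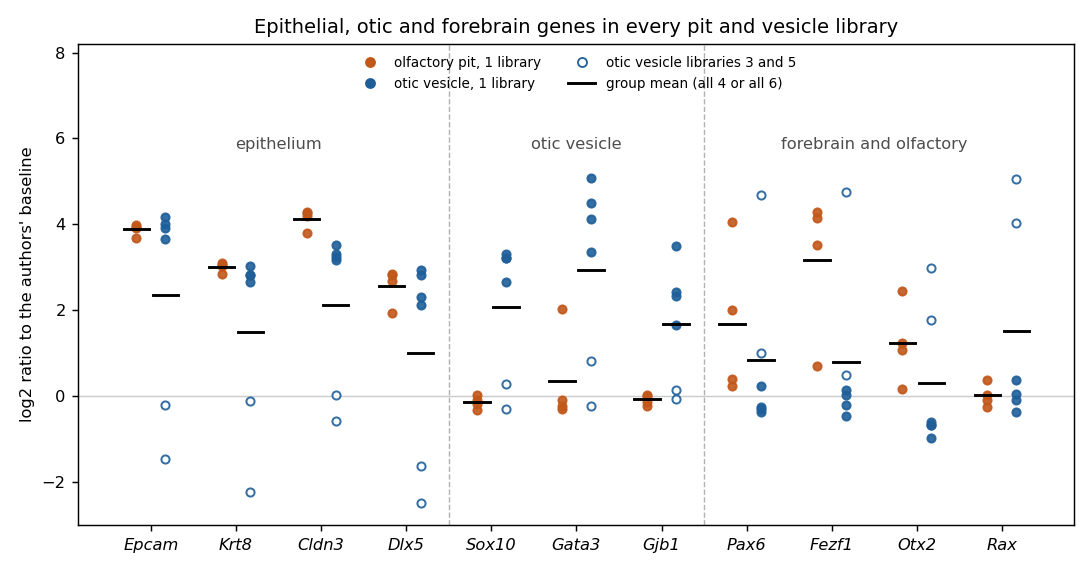
Log2 ratio to the authors' baseline (y axis) of epithelial, otic and forebrain genes (x axis) in the 4 pit and 6 vesicle libraries, with a bar at each group mean and open circles for vesicle libraries 3 and 5. The open circles lie low for Epcam, Krt8, Cldn3 and Dlx5 and for Sox10, Gata3 and Gjb1, and high for Otx2 and Rax, with Rax at 4.04 and 5.05.

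Without vesicles 3 and 5 the calls numbered 231 (1.16% of genes), 74 higher (0.371%) and 157 lower in the pit (0.787%), and in 5.45% of all genes the 8 libraries did not overlap. The calls shared by both fits were 125, which is 69.8% of the 179 and 54.1% of the 231. Of the 97 genes higher with all libraries 58 were also called higher in 4 against 4, and of the 82 lower genes 67 were also called lower. Of the genes picked in this way, 47 were called both ways, 14 only with all 10 libraries and 19 only without vesicles 3 and 5.

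**Figure D2:**
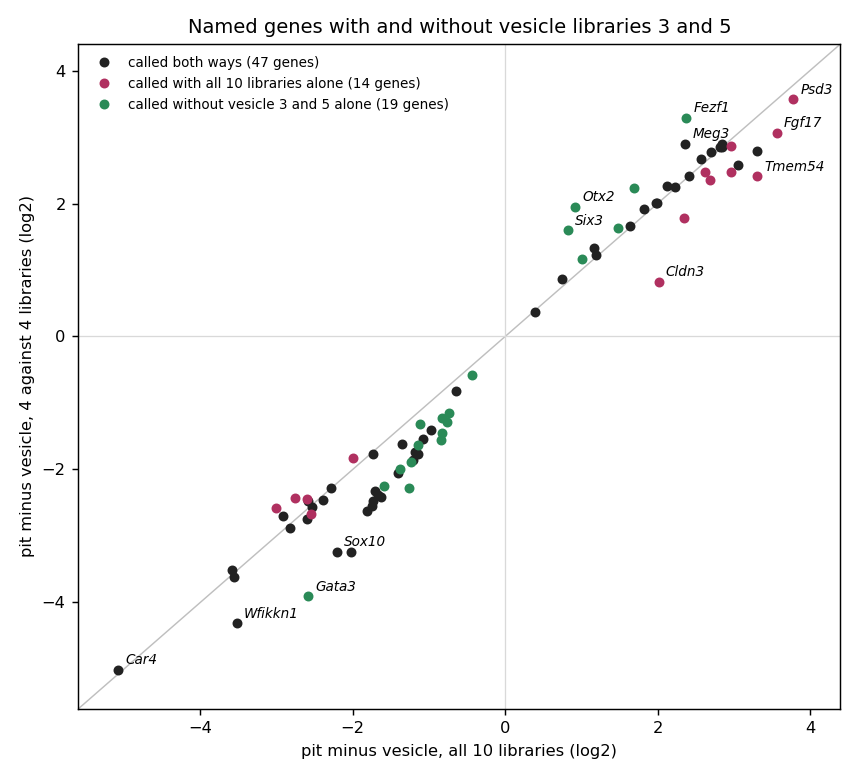
Pit minus vesicle difference in log2 units of the named genes called in either fit, with all 10 libraries (x axis) and without vesicle libraries 3 and 5 (y axis); the grey line marks equal values and colours mark in which fit a gene was called. Gata3 moved from -2.58 to -3.91 and Cldn3 from 2.01 to 0.82.

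Sox10, a SOX factor of the otic epithelium and the neural crest, was at -0.10, -0.33, -0.18 and 0.03 in pits 1 to 4, and at 3.21, 2.66, 0.29, 3.30, -0.29 and 3.22 in vesicles 1 to 6. Vesicles 1, 2, 4 and 6 were far above every pit, and vesicles 3 and 5 lay with the pits. The difference was -2.21 ± 0.38 (SE; 4.62-fold lower in the pit, adjusted p 0.00025, limma) and -3.24 without vesicles 3 and 5 (9.45-fold, adjusted p 1.9e-12). It stayed called with each library left out, at an adjusted p of at most 0.0034. The 7 markers of neural crest and glia averaged -0.49 to -0.30 in the pits and -0.45 to 0.63 in the vesicles, and their part in the Sox10 value was not tested.

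Sox9, a SOX factor of otic and skeletal precursors, was between -1.04 and -0.18 in the pits and at 0.67, 0.89, -0.53, 1.88, -0.61 and 2.06 in vesicles 1 to 6. It was 2.66-fold lower in the pit (adjusted p 0.012) and 4.16-fold lower without vesicles 3 and 5 (adjusted p 4e-06), but lost its call without vesicle 4 (adjusted p 0.074), vesicle 6 or pit 4. Gbx2, a regulator of the anterior hindbrain and of the ear, was between -0.45 and -0.06 in the pits and at 1.21, 0.54, 0.18, 2.95, -0.30 and 3.77 in the vesicles. Its difference was -1.66 ± 0.37 (SE, adjusted p 0.009) and -2.39 in 4 against 4 (adjusted p 2.7e-06), and the call ended without vesicle 6 (adjusted p 0.073) or vesicle 4. Tbx2, a T-box factor, was 3.27-fold lower in the pit (adjusted p 0.047), and 8 of the 10 omissions of a single library ended that call, with adjusted p values up to 0.2; in 4 against 4 it was 4.99-fold lower (adjusted p 0.0023). Fbxo2, an F-box gene of the inner ear, was at 4.43 and 4.26 in vesicles 1 and 4 and between -0.16 and 1.06 in the other 8 libraries. It was 3.31-fold lower in the pit (adjusted p 0.014; 5.57-fold and 1.8e-05 in 4 against 4) but not called without vesicle 4 (adjusted p 0.13) or vesicle 1.

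Of 19 measured otic regulators, 5 were called lower and 0 higher in the pit, with 14 not called; their median difference was -0.52 against -0.02 over all genes. The limma fit had 10 of the 19 lower and 0 higher at an unadjusted p of 0.05. Over all genes 0.411% were called lower, and 10.1% passed the unadjusted p in either direction. In 4 against 4 libraries 7 were called lower, with Gata3 and Pax8 added to the 5, and 0.787% of all genes were called lower. The mean of this list was among the values that set vesicle 5 apart, so the added calls are no separate support. Gata3, a zinc finger factor needed for the ear, was at -0.08, -0.30, -0.23 and 2.02 in the pits and at 4.49, 3.35, 0.81, 5.08, -0.23 and 4.12 in the vesicles. Its mean in the vesicle was the highest of the 22 groups, and its difference of -2.58 was not called with all libraries (adjusted p 0.083), while -3.91 without vesicles 3 and 5 was (adjusted p 0.00088). Pax8, a paired-box factor of the early otic placode, was 2.22-fold lower in the pit in 4 against 4 (adjusted p 0.031).

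Other otic genes were not called in either fit. Pax2, the paired-box partner of Pax8, lay between 0.02 and 0.31 in the pits and between 0.04 and 0.56 in the vesicles (difference -0.08, adjusted p 0.92). Tbx1, a T-box factor of the otic epithelium, differed by -0.04 (adjusted p 0.98). Hmx2 and Hmx3, homeobox genes of the vestibular ear, were above every pit in vesicles 1 to 4, vesicle 3 included, and were below the highest pit in vesicles 5 and 6. Their differences of -0.52 and -0.55 were not called (adjusted p 0.52 and 0.46). The pit and vesicle libraries overlapped for Pax2, Hmx2 and Hmx3.

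Oc90, which codes for the main protein of the otoconia, was at 2.12 and 3.41 in vesicles 1 and 4 and between -0.30 and 0.28 in the other 8 libraries (difference -0.83, adjusted p 0.13; -1.23 in 4 against 4, adjusted p 0.0062). Over the 22 group means, the genes whose pattern was most like that of Oc90 were Gjb1 (Pearson r 0.943), Wfdc3 (0.922), Slc26a9 (0.921), Krt23 (0.916) and Trpm3 (0.9). These r values are a description over group means, in which the vesicle mean is 1 point shared by all of these genes. Oc90 was higher on average in the vesicle than in the pit, so genes picked by likeness to it tend to be lower in the pit. Their tests below are therefore no separate support.

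Gjb1, a connexin of gap junctions, was at 0.01, -0.22, -0.14 and 0.03 in the pits and at 2.34, 3.49, 0.15, 1.66, -0.06 and 2.43 in the vesicles. Its difference was -1.75 ± 0.25 (SE; 3.35-fold lower in the pit, adjusted p 4e-06) and -2.56 without vesicles 3 and 5, and leaving out any 1 library left the adjusted p at 6.9e-05 or below. Krt23, an epithelial keratin, was at 3.18, 1.72, 0.15, 5.28, 0.14 and 5.05 in the vesicles and at 0.13, 1.71, 0.27 and 0.16 in the pits, 4.05-fold lower in the pit (adjusted p 0.0018; 9.44-fold and 1.9e-14 in 4 against 4). Pit 2 reached the level of vesicle 2. With the spread of the compared libraries alone, Krt23 had an adjusted p of 0.76, and of 0.42 in 4 against 4 (limma). Trpm3, a cation channel of epithelia and sensory cells, was at most 0.06 in the pits and at least 0.06 in the vesicles, and was 2.11-fold lower in the pit (adjusted p 0.00025; 2.92-fold in 4 against 4). Slc26a9, an anion transporter, was 1.96-fold lower (adjusted p 0.0047; 2.64-fold in 4 against 4). Wfdc3, a small protease inhibitor gene, differed by -1.62 (adjusted p 0.013; -2.41 in 4 against 4), but its second probe set differed by 0.14, and the call ended without vesicle 6 (adjusted p 0.11), 4 or 1.

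Of 13 genes of the otic matrix and otoliths, 0 were called in the limma fit with all 10 libraries, and 6 were lower at an unadjusted p of 0.05; 3 were called lower in 4 against 4. These were Oc90 and the type IX collagen chains Col9a1 (2.49-fold, adjusted p 0.042) and Col9a3 (3.11-fold, adjusted p 0.0017). Over all genes 0.787% were called lower in 4 against 4, and 10.1% passed the unadjusted p with all libraries. Col9a1 was at 0.27, 0.02, 2.25 and 2.71 in vesicles 1, 2, 4 and 6 and at most 0.15 in the pits. Its highest group mean was in the E9.5 mandibular arch (2.35). Col9a3 was at 0.53, 0.50, 3.31 and 1.56 in the same vesicles and at most 0.11 in the pits. The list's median difference was -0.29. Among the called genes singled out after their values were seen were Clrn1, Ush1c and Hs3st1. Clrn1 and Ush1c are known for Usher syndrome of hearing and sight. Clrn1 was at 1.70, 0.26, 0.10, 2.45, -0.02 and 3.17 in the vesicles, with pits at -0.04, -0.12, -0.02 and 0.71 (2.21-fold lower in the pit, adjusted p 0.028; 3.39-fold and 5.9e-06 in 4 against 4), and lost its call without 6 of the 10 libraries, with adjusted p values up to 0.19. Ush1c was 1.56-fold lower in the pit (adjusted p 0.014), and lost its call without vesicle 4 (adjusted p 0.081), vesicle 2, pit 1 or pit 2. Hs3st1, a heparan sulphate sulphotransferase, was at 1.42, 3.36, 0.76, 2.78, 0.34 and 4.34 in the vesicles and between -0.11 and 0.88 in the pits (3.52-fold lower in the pit, adjusted p 0.0014; 6.16-fold and 7.8e-09 in 4 against 4). Clrn1, Ush1c and Hs3st1 each had their highest group mean of the 22 in the vesicle.

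The largest difference of all belonged to Car4, a membrane carbonic anhydrase. It was at -0.53, -0.50, -0.49 and -0.09 in the pits and at 5.14, 2.50, 4.75, 6.17, 4.89 and 4.61 in the vesicles, vesicles 3 and 5 included. The groups did not overlap, and Car4 was 33.8-fold lower in the pit (-5.08 ± 0.64, SE, adjusted p 1.5e-07). Car4 was also high in tissue that is not otic: its highest group mean, 6.11, was in the E8.5 caudal neural epithelium, and from E9.5 to E10.5 it fell by 3.74 in neuroepithelium (adjusted p 0.00024). In surface ectoderm the stage difference was -2.09 (adjusted p 0.11).

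Wfikkn1, a secreted protein that binds growth factors of the myostatin group, was at -2.43, -2.22, -1.97 and -0.43 in the pits and at 2.81, 2.72, 0.48, 3.20, -0.13 and 1.46 in the vesicles. It was 11.5-fold lower in the pit (adjusted p 0.00011) and 19.8-fold lower without vesicles 3 and 5 (adjusted p 8.6e-07). From E9.5 to E10.5 it also fell by 3.60 in surface ectoderm (adjusted p 8.4e-05) and by 3.83 in neuroepithelium (adjusted p 2.8e-05). Beyond the ectoderm's stage difference its pit minus vesicle value was 0.08 (adjusted p 1.0), and -0.72 without vesicles 3 and 5 (adjusted p 0.96).

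Psat1, the second enzyme of serine synthesis, was at -2.48, -2.45, -1.99 and -1.95 in the pits and at -0.06, 0.48, 1.16, 1.24, 1.07 and 0.28 in the vesicles. The groups lay well apart, with vesicles 3 and 5 among the other vesicles, and Psat1 was 7.52-fold lower in the pit (adjusted p 0.00051). It was not called between the stages in ectoderm or in neuroepithelium (adjusted p 1.0 in each).

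**Figure D3:**
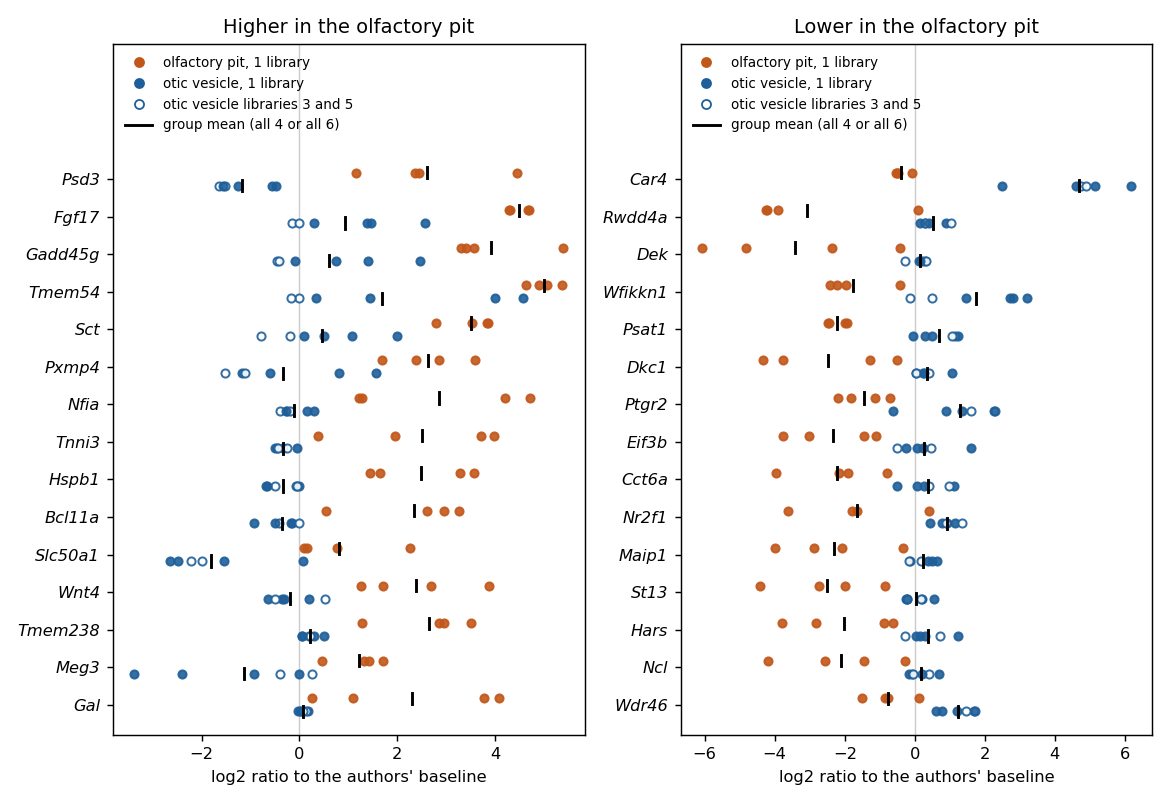
Log2 ratio to the authors' baseline (x axis) of the 15 genes with the largest called difference in each direction and no overlap between pit and vesicle libraries; points are libraries, bars are group means and open circles are vesicle libraries 3 and 5. Fgf17 lies between 4.28 and 4.69 in the pits, and Dek spreads from -6.07 to -0.42 over the 4 pits.

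Of 17 measured olfactory regulators, 0 were called in the limma fit with all 10 libraries, and 2 were higher at an unadjusted p of 0.05. In 4 against 4 libraries 4 were called higher: Six3, Otx2, Fezf1 and Aldh1a3. Over all genes 10.1% passed an unadjusted p of 0.05 with all libraries, and 0.371% were called higher in 4 against 4. Otx2 and Fezf1 were among the genes that set the omitted vesicles apart, and the difference of Six3 also grew when those vesicles were left out. The calls of Six3, Otx2 and Fezf1 here are therefore no separate support. The list's median difference was 0.47, with 15 of 17 values above 0. Fezf1, a zinc finger factor of olfactory sensory neurons and the forebrain, was at 3.52, 4.28, 4.14 and 0.71 in the pits and at -0.22, 0.02, 0.50, -0.46, 4.75 and 0.14 in the vesicles. Pit 4 was lower than the other pits, and vesicle 5 was above all of them; without vesicles 3 and 5 the difference was 3.29 (9.8-fold, adjusted p 0.0047) against 2.37 with them (adjusted p 0.097). Six3, a homeobox factor of the anterior head, was at 2.84, 1.71, 0.14 and 0.73 in the pits (4 against 4: 3.02-fold higher, adjusted p 0.037), and Otx2, a homeobox factor of the anterior head, at 0.16, 2.45, 1.23 and 1.07 (3.88-fold, adjusted p 0.044). Pax6, a paired-box factor of nose and eye, was at 4.06 and 2.01 in pits 1 and 2 and at 0.24 and 0.39 in pits 3 and 4, and was not called either way (adjusted p 0.76 and 0.19).

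The 4 pit libraries differed among themselves in these genes. Aldh1a3, which makes retinoic acid in the nasal and optic ectoderm, was at 3.01 and 3.40 in pits 1 and 4 and at 0.01 and 0.24 in pits 2 and 3. Pitx1, a homeobox gene of oral ectoderm, followed the same pits, at 4.36 and 3.55 in 1 and 4 and at -0.08 and 0.19 in 2 and 3, as did Krt14, a keratin of stratifying surface ectoderm, at 5.21 and 4.99 against 1.02 and -0.07. Krt14 was called higher in the pit (7.19-fold, adjusted p 0.0079) and lost its call without pit 1 (adjusted p 0.17) and without pit 4. Stmn2, a tubulin-binding protein of young neurons, was at 4.43 and 3.97 in pits 2 and 3 and at -1.05 and -1.91 in pits 1 and 4, and was not called (adjusted p 0.091). As lists, the 17 surface ectoderm markers averaged 1.65, 1.66, 1.02 and 1.84 in pits 1 to 4, so that pits 1 and 2 were alike, and the 13 retinoic acid genes averaged 0.21, 0.19, -0.07 and 0.43.

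Pan-placodal regulators showed 1 called member of 13. Six2, a homeobox factor of the sine oculis family, was at 2.34, 2.14, 1.18 and 2.34 in the pits and at 1.20, 0.57, -1.61, 0.00, -1.35 and -0.90 in the vesicles, 5.09-fold higher in the pit (adjusted p 0.012), but not in 4 against 4 (adjusted p 0.11) or without pit 1. Eya2, a cofactor of sine oculis family proteins, was between 0.73 and 2.20 in the pits and was called only in 4 against 4 (2.24-fold higher, adjusted p 0.027). Eya1 was not called (adjusted p 0.59), and Sox2, shared by both sensory epithelia, differed by -0.16 (adjusted p 0.99). Uncx, a homeobox gene, was singled out after its values were seen: 3.68, 2.46, 0.50 and 0.68 in the pits and -0.41 to 0.43 in the vesicles. It was 3.53-fold higher in the pit (adjusted p 4e-06), its mean there was the highest of the 22 groups, and it stayed called without any 1 library.

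Fgf17, an FGF ligand of the rostral signalling centre of the forebrain, was at 4.68, 4.30, 4.69 and 4.28 in the pits and at 1.38, 0.30, -0.16, 1.46, -0.00 and 2.56 in the vesicles. The pits were tightly grouped and above every vesicle, 11.8-fold in the mean (3.57 ± 0.81, SE, adjusted p 0.011); in 4 against 4 the 8.36-fold difference had an adjusted p of 0.064. Sct, the gene for the peptide hormone secretin, was at 3.84, 3.54, 2.79 and 3.85 in the pits against -0.79 to 2.00 in the vesicles, 8.31-fold higher (adjusted p 0.0048) and called in both fits. Gal, the neuropeptide galanin, was at 4.08, 3.77, 1.09 and 0.25 in the pits and at most 0.17 in the vesicles (4.7-fold, adjusted p 0.00011). Grp, gastrin-releasing peptide, was at 4.22 and 3.96 in pits 1 and 3 and at 0.15 and -0.15 in pits 2 and 4, which lay with the vesicles (adjusted p 6e-05). With the spread of the compared libraries alone its adjusted p was 0.74 (limma). Grp was named after its values were seen. Sct, Gal and Grp each had their highest group mean in the olfactory pit, and each kept its call with any 1 library left out.

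Gadd45g, a stress and cell cycle regulator also found in newborn neurons, was at 5.39, 3.30, 3.41 and 3.56 in the pits and at 0.75, -0.10, -0.45, 2.47, -0.42 and 1.40 in the vesicles. Every pit was above every vesicle, and it was 9.9-fold higher in the pit (adjusted p 0.00072; 6.89-fold and 0.013 in 4 against 4). Bcl11a, a zinc finger repressor of neurons, was at 0.53, 2.61, 3.25 and 2.96 in the pits and below 0 in every vesicle (6.52-fold, adjusted p 0.00081). It also rose by 2.44 from E9.5 to E10.5 in neuroepithelium (adjusted p 0.0063). Bcl11b, its relative, named after its values were seen, was 2.25-fold higher in the pit (adjusted p 0.014), and lost its call without pit 1 (adjusted p 0.28) or vesicle 4. Meg3, an imprinted long noncoding RNA, was 5.14-fold higher in the pit (adjusted p 0.0093; 0.057 without vesicle 6; 7.45-fold in 4 against 4), and its imprinted neighbour Dlk1 was called in 4 against 4 alone (4.71-fold, adjusted p 0.035).

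Tmem54, a membrane protein gene, was at 4.64, 5.06, 5.38 and 4.91 in the pits, and at 4.57 and 3.99 in vesicles 1 and 4 against -0.18 to 1.44 in the others. It was 9.89-fold higher with all libraries (adjusted p 0.01) and not called in 4 against 4 (5.33-fold higher, adjusted p 0.12). Claudins, which seal tight junctions, gave 2 called members. Cldn3 was between 3.79 and 4.28 in the pits, between 3.16 and 3.52 in vesicles 1, 2, 4 and 6, and at 0.03 and -0.57 in vesicles 3 and 5. Its 4.04-fold difference (adjusted p 0.034) was 1.77-fold without those 2 (adjusted p 0.54), and leaving out vesicle 3, vesicle 5 or any of pits 1 to 3 alone also ended the call. Cldn23 was at 2.93, 1.01, 2.74 and 0.45 in the pits and at most 0.36 in the vesicles (3.12-fold, adjusted p 0.00035, called both ways). Of 28 cadherins, protocadherins and claudins, Cdh2, the N-cadherin, was the called gene in the other direction (2.56-fold lower in the pit, adjusted p 0.044), and 6 of the 10 omissions of a single library ended that call (adjusted p 0.24 without vesicle 4).

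The named genes Psd3, Nfia and Wnt4 need their probe sets beside them. Psd3, an exchange factor of neurons, was 13.7-fold higher in the pit at 1 probe set (adjusted p 0.018), and its other probe set differed by -0.04; the call ended without pit 1 (adjusted p 0.16) and in 4 against 4 (0.055). Nfia, a nuclear factor of glia and neurons, differed by 2.96 at 1 probe set (adjusted p 0.04) and by 0.03 at the other, and its call ended in 6 of the 10 omissions and in 4 against 4 (adjusted p 0.083). Wnt4 was at 2.70, 1.26, 1.70 and 3.87 in the pits and -0.65 to 0.52 in the vesicles (5.92-fold, adjusted p 0.017), and its other probe set gave -0.00; the call ended without pit 4 (adjusted p 0.15), pit 1 or vesicle 4. Hspb1, a small heat shock protein, was 7.04-fold higher (adjusted p 0.025), and its probe sets gave 2.82 and 2.87, but the call ended without pit 1 (adjusted p 0.16), pit 2, vesicle 4 or vesicle 6; it also rose by 3.81 in surface ectoderm from E9.5 to E10.5 (adjusted p 0.00064).

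Proneural genes were high in libraries of both epithelia. Neurog1, the first proneural factor of both placodes, was at 3.32, 2.70, 0.96 and 1.30 in the pits and at 0.86, 1.23, 0.59, 2.05, -0.04 and 3.42 in the vesicles (difference 0.72, adjusted p 0.63). Neurod1, which acts after it, was at 3.88 and 2.51 in pits 2 and 3 and at 2.81 and 3.86 in vesicles 4 and 6, with the other 6 libraries between -0.24 and 0.81 (difference 0.75, adjusted p 0.69). Libraries of each epithelium thus had these genes high, and the groups overlapped. Of 13 proneural genes, 1 was called, Nhlh1, a bHLH factor of young neurons, which was higher in every pit but by only 1.31-fold (adjusted p 0.0082; 0.054 without pit 2). Of 22 genes of neuronal differentiation, 0 were called by limma, with 4 higher and 1 lower at an unadjusted p of 0.05, which 10.1% of all genes passed. Tubb3, a neuronal tubulin, differed by 2.21 with an SE of 0.96 (adjusted p 0.38).

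In the Notch pathway, 1 of 16 genes was called in each direction. Hes1, the repressor that Notch switches on, was at 0.79, 0.64, 0.35 and 0.23 in the pits and at -0.07, -0.56, -0.31, -0.60, 0.25 and -0.19 in the vesicles (1.68-fold higher in the pit, adjusted p 0.04), and 6 of the 10 omissions ended the call (adjusted p 0.22 without pit 1). Lfng, a glycosyltransferase that modifies Notch in the neurosensory patch of the ear, was at 0.88, 2.61 and 3.31 in vesicles 1, 4 and 6 and between -0.19 and 0.16 in the other 7 libraries (2.26-fold lower in the pit, adjusted p 0.045; 3.33-fold and 0.00027 in 4 against 4). Without vesicle 6 its adjusted p was 0.28, and the call also ended without vesicle 4 or pit 1, 3 or 4.

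The lists of other signalling pathways were short, and over all genes 0.898% were called with all libraries and 1.16% in 4 against 4. Among 12 FGF ligands Fgf17 was the 1 called member with all libraries. Fgf8, a ligand of the nasal pit rim, was at 0.39, 1.91, 1.14 and 2.10 in the pits and -0.94 to 0.56 in the vesicles (adjusted p 0.11). Fgf10, a ligand of the neurosensory otic epithelium, was called in 4 against 4 (2.93-fold lower in the pit, adjusted p 0.0093), with vesicles 4 and 6 at 3.09 and 3.63 and the pits at 0.20 to 1.46. Etv5, a target of FGF signalling, was the 1 of 17 receptors and targets called in 4 against 4 (2.73-fold lower, adjusted p 0.042); with all libraries limma called 0, and 1 was lower unadjusted. Of 17 WNT ligands 1 was called, Wnt4, and of 26 WNT modulators and targets 0, with 2 lower at an unadjusted p of 0.05 by limma; Sp5, a WNT target, was 4.87-fold lower in 4 against 4 (adjusted p 0.00053). Of 23 BMP genes 0 were called (2 higher and 1 lower unadjusted), with Bmp4 high in both epithelia at 1.14 to 4.06 in the pits and 1.02 to 3.16 in the vesicles. Of 13 retinoic acid genes and 11 Hedgehog genes 0 were called (1 higher and 2 lower unadjusted, and 0), and Aldh1a3 was called in 4 against 4 (3.09-fold higher, adjusted p 0.045).

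Genes of position along the head are given beside the same shares over all genes, 0.898% with all libraries and 1.16% in 4 against 4. Of 17 Hox and hindbrain genes, 0 were called by limma (1 lower unadjusted), and 1 was called in 4 against 4, Hoxb2, a Hox gene of the hindbrain. It was between 1.90 and 2.58 in vesicles 1, 2, 4 and 6, at 0.55 and 0.11 in vesicles 3 and 5, and between 0.02 and 0.29 in the pits (3.99-fold lower, adjusted p 0.019). Nr2f1, a nuclear receptor that patterns the brain and the ear, was at 0.40, -1.79, -1.66 and -3.61 in the pits and between 0.42 and 1.34 in the vesicles (5.98-fold lower, adjusted p 0.004; 0.076 without pit 4). Of 27 axon guidance genes, limma called 0 with all libraries (3 lower unadjusted), and Epha7, an ephrin receptor, was the 1 called in 4 against 4 (3.71-fold lower in the pit, adjusted p 0.03).

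**Figure D4:**
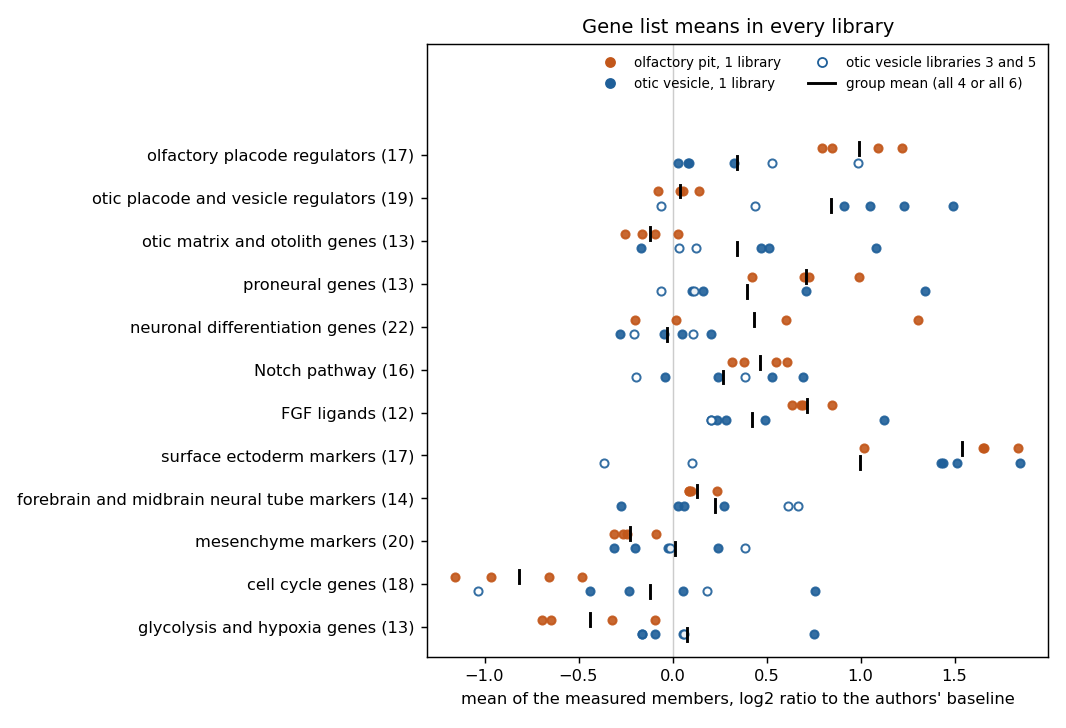
Mean log2 ratio of the measured members of 12 gene lists (x axis) in each library, with the number of members in brackets, bars at group means and open circles for vesicle libraries 3 and 5. The 4 pits lie between 0.80 and 1.22 for the olfactory regulators and between -0.08 and 0.14 for the otic regulators.

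Some of the genes called lower in the pit were low in part of the pit libraries. Dek, a chromatin protein, was at -4.83, -0.42, -6.07 and -2.37 in the pits and between -0.28 and 0.31 in the vesicles (11.8-fold lower, adjusted p 0.0016). Ncl, the nucleolar protein nucleolin, was at -4.19, -0.27, -2.55 and -1.45 in the pits and between -0.18 and 0.70 in the vesicles (4.87-fold, adjusted p 0.011). Dkc1, which modifies ribosomal RNA, Eif3b, a translation initiation factor, Cct6a, a chaperonin subunit, St13, a co-chaperone, and Hars, a tRNA synthetase, were 5.25-fold to 7.07-fold lower, with adjusted p values of 0.011 to 0.036. In each of these 7 genes pit 2 was the highest pit. Low values also occurred in surface ectoderm. In E10.5 maxillary ectoderm Eif3b and Dkc1 averaged -2.37 and -2.11, against -2.34 and -2.48 in the pit. Dek, Cct6a and Hars averaged -1.11, -0.46 and -0.94 there, above their pit means. Dek was at -5.22 in the lowest E9.5 epidermal ectoderm library. Leaving out a single library ended the calls of Dkc1, Eif3b, Cct6a, St13 and Hars, with adjusted p values of up to 0.27, and Cct6a was not called in 4 against 4 (adjusted p 0.09).

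The arrays also differed in their lower tail. The 5th percentile of all genes was -1.54, -0.62, -1.70 and -1.24 in pits 1 to 4, and -0.63, -1.48, -2.08, -0.38, -0.62 and -0.98 in vesicles 1 to 6; over all 102 libraries its median was -0.65. Pit 2, with the highest percentile of the pits, was also the highest pit for Dek and Ncl. Vesicles 2 and 3, with percentiles of -1.48 and -2.08, had Dek at 0.12 and -0.28 and Ncl at -0.08 and -0.06. With the percentile as a covariate 293 genes were called, the 179 among them. The part of the tail in the low values of pits 1, 3 and 4 was not tested. Without pit 3 the adjusted p of Dek was 0.057, and without pit 1 that of Ncl was 0.24.

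The 18 cell cycle genes had a median difference of -0.73, and 1 was called, Mcm3, a subunit of the replicative helicase (3.32-fold lower in the pit, adjusted p 0.035, with 6 of the 10 omissions ending the call, at 0.16 without vesicle 4). The 13 genes of glycolysis and hypoxia had a median of -0.48 with 0 called by limma and 4 lower unadjusted; Ldha was at -1.47 to -0.52 in the pits and 0.01 to 0.76 in the vesicles (adjusted p 0.068). Of 12 oncofetal genes linked to Lin28 0 were called and 3 were lower unadjusted, with a median of -0.26. Over all genes 0.898% were called, and 10.1% passed an unadjusted p of 0.05 in either direction.

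Markers of other cell types were set beside the shares over all genes. In 10 lists for neural tube, mesenchyme, crest, endothelium, blood, macrophages, muscle and endoderm, 0 of 119 measured entries were called by limma with all libraries. Over all genes 0.898% were called, so 0 calls here cannot tell whether these markers differ. At an unadjusted p of 0.05, 2 entries were higher and 4 lower, and 10.1% of all genes passed. In 4 against 4, 2 were called lower in the pit, where 0.787% of all genes were lower. They were Irx3, an Iroquois factor of the neural tube (4.74-fold, adjusted p 0.0047), and Erbb3, a neuregulin receptor of crest and glia (1.5-fold, adjusted p 0.017). The 20 mesenchyme markers averaged -0.31 to -0.09 in the pits and -0.31 to 0.38 in the vesicles, with vesicle 3 the highest; Twist1, which marks head mesenchyme, was at 2.10 there and between -3.22 and 0.35 in the other 9 libraries. The part of these markers in the results was not tested. The 14 endothelial markers averaged -0.29 to -0.10 in the pits and -0.27 to 0.20 in the vesicles. Of the 17 surface ectoderm markers 1 was called, Krt14, and their mean was 1.02 to 1.84 in the pits.

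Stage could be set beside region in tissues captured at both stages. From E9.5 to E10.5, surface ectoderm had 36 genes called higher (0.181%) and 36 lower (0.181%), and neuroepithelium 56 higher (0.281%) and 29 lower (0.145%). Of the 82 genes lower in the pit, 1 was also called lower in E10.5 ectoderm, Wfikkn1, and 2 in E10.5 neuroepithelium, Wfikkn1 and Car4. Of the 97 higher in the pit, 1 was called higher in E10.5 ectoderm, Hspb1, and 1 in neuroepithelium, Bcl11a. The ectoderm libraries at E10.5 were maxillary and those at E9.5 epidermal, so their difference also holds a difference of place.

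The pit minus vesicle difference beyond the ectoderm's stage difference was tested as (pit minus maxillary ectoderm at E10.5) minus (vesicle minus epidermal ectoderm at E9.5). It was called in 41 genes (0.206%), 29 higher (0.145%) and 12 lower (0.0602%), and in 74 (0.371%) without vesicles 3 and 5. With the neuroepithelium in place of the ectoderm, 62 were called (0.311%), and without pit 1 there were 19 with the ectoderm. Fitted on the 4 groups alone, limma called 0 genes, with 963 at an unadjusted p under 0.05. Gjb1, picked above for its likeness to Oc90, was lower by this measure with each reference. Its value was -1.80 with the ectoderm (adjusted p 0.0056) and -1.79 with the neuroepithelium (adjusted p 0.0064). Sox9 gave -2.32 (adjusted p 0.0056) and -1.73 (adjusted p 0.087), and Sox10 -2.26 (adjusted p 0.038) and -2.09 (adjusted p 0.076). Sox9 averaged -0.81 in E9.5 and 0.10 in E10.5 ectoderm, a difference of 0.91 that was not called (adjusted p 0.2) and that enters its value; Sox10 averaged -0.13 and -0.08. Without vesicles 3 and 5 the values with the ectoderm were -2.62 for Gjb1, -2.97 for Sox9 and -3.29 for Sox10, each of them called.

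Gal and Grp were higher by this measure with the ectoderm (2.27, adjusted p 0.026, and 1.99, adjusted p 0.025) and with the neuroepithelium (2.29, adjusted p 0.03, and 1.96, adjusted p 0.031). Meg3 was higher with the ectoderm (3.81, adjusted p 0.0056), and with the neuroepithelium its 1.82 was not called (adjusted p 0.44). Six3 (2.86, adjusted p 0.015), Eya2 (1.85, adjusted p 0.015) and Uncx (1.68, adjusted p 0.019) were higher with the ectoderm and had adjusted p values of 0.41, 0.09 and 0.052 with the neuroepithelium. All of these genes, Gal, Grp and Meg3 included, were called with the ectoderm without vesicles 3 and 5, at 3.63 for Six3 and 1.78 to 4.34 for the others. The larger Six3 value without those vesicles is no separate support.

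The largest values were those of Pitx1 (5.40 ± 0.98, SE, adjusted p 0.0038) and Aldh1a3 (4.91 ± 0.57, SE, adjusted p 7.5e-09). For both, the ectoderm's stage difference was larger in size than the pit minus vesicle difference. Aldh1a3 averaged 3.62 in E9.5 epidermal ectoderm (0.83 to 5.22 over 7 libraries) and 0.20 in E10.5 maxillary ectoderm, a fall of 3.42 (adjusted p 7.2e-09), while it was 1.66 in the pit and 0.18 in the vesicle. Pitx1 averaged 4.84 in E9.5 epidermal ectoderm (3.25 to 5.35), 1.34 in maxillary ectoderm, 2.00 in the pit and 0.11 in the vesicle. Both calls ended with the neuroepithelium as reference (adjusted p 0.29 for Pitx1 and 0.34 for Aldh1a3). Ociad2 (3.91), Tnnt1 (3.85) and Gchfr (3.83) were the next highest and Ramp2 (-4.31), Nrep (-3.23) and Irx3 (-2.91) the lowest, and none of these 6 was called with the neuroepithelium as reference, with adjusted p values of 0.12 to 0.93. Without vesicles 3 and 5 Pitx1, Aldh1a3, Tnnt1, Nrep and Irx3 kept their call with the ectoderm, and Ociad2 (adjusted p 0.051), Gchfr (0.15) and Ramp2 (0.11) lost it.

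**Figure D5:**
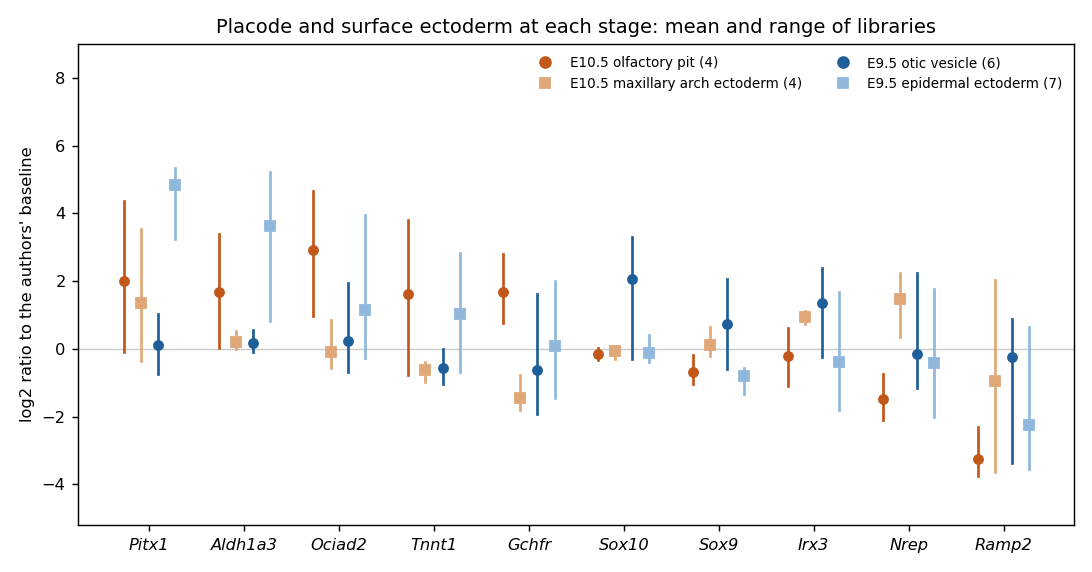
Mean and range over libraries of the log2 ratio (y axis) of the 5 genes with the largest called value of each sign in the difference beyond the ectoderm (x axis), in olfactory pit, maxillary arch ectoderm, otic vesicle and E9.5 epidermal ectoderm. Pitx1 and Aldh1a3 average 4.84 and 3.62 in E9.5 epidermal ectoderm.

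Promoters of some named genes are shown to let their sequence be set beside the values. Car4, Sct and Gadd45g were among the 15 leading genes of their direction, and Gjb1 was picked for its likeness to Oc90. Each is the 250 bases before a transcript's start in RefSeq (GRCm38.p6), 5′ to 3′ on the gene's strand, in lower case, with matches to 4 motifs in capitals. The motifs, searched on both strands, were ACAAAG, a core that SOX factors bind, TAATTA, a homeodomain core, and the E-boxes CACGTG and CAGCTG that bHLH factors bind. For the vesicle, Gjb1 (chromosome X, + strand) has 4 starts, of which start 1 (chrX:101376126-101376375) and start 4 (chrX:101383482-101383731) hold ACAAAG, and Car4 (chr11:84957504-84957753, + strand) holds none of the 4.
Gjb1 start 1: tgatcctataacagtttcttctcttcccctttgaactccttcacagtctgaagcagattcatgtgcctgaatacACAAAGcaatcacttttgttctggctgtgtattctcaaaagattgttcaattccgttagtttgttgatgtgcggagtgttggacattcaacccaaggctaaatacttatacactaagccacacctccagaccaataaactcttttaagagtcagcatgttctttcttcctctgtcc
Gjb1 start 4: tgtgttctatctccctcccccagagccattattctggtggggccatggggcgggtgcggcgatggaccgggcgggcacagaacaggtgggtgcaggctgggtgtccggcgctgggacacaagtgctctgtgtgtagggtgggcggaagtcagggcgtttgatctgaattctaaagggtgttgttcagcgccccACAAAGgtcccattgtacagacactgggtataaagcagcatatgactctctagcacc
Car4: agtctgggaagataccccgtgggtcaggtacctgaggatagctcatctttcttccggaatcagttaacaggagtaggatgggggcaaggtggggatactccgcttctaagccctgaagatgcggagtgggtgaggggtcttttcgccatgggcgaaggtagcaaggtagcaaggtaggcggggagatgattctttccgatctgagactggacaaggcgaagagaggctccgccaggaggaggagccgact
For the pit, Sct (chr7:141279134-141279383, - strand) holds CAGCTG, and Gadd45g (chr13:51846425-51846674, + strand) holds CACGTG and CAGCTG.
Sct: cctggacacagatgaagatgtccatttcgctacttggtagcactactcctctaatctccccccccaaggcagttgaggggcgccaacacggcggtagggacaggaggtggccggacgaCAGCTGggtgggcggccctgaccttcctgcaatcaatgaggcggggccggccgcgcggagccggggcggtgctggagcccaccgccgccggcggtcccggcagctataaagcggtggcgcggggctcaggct
Gadd45g: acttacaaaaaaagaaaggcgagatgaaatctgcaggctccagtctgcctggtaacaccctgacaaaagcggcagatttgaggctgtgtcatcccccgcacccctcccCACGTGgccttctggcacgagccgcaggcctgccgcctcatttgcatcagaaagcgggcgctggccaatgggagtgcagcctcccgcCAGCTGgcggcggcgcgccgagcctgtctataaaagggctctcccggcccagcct
ACAAAG was in 18.6% of the promoters of all 27025 genes with one and 16.8% of those of the 15614 tested genes, in 10.7% of the 75 genes called higher in the pit with a promoter and in 20% of the 65 called lower. TAATTA was in 5.65% of all, 4.82% of the tested, 5.33% of the higher and 0% (0 of 65) of the lower, CACGTG in 6.86%, 8.11%, 4% and 10.8%, and CAGCTG in 14.7%, 14.5%, 20% and 20%, in the same order. A match describes the letters in this window only.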

How the data were processed

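Laser-captured tissue of CD1 mouse embryos was amplified and hybridised to whole-transcript arrays, per the labels' protocols. The authors deposited 1 table of linear ratios to a baseline; RMA and mm9 are named in the submitters' processing notes. Over 1 set of 21 samples, with 0 pit and 1 vesicle libraries, every probe set has a median ratio of 1. Ratios keep no signal over background, so the number of arrays limits the precision. Of 28856 probe sets with values, 21789 had 1 gene symbol; the probe set with the highest mean log2 ratio stood for a gene (999 genes had several), leaving 19938. The log2 of the deposited ratios was fitted by group in limma 3.58.1 (R 4.3.3) over 102 libraries (80 residual degrees of freedom), after a test on simulated data; 1 further sample has no group in the labels.

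Named were up to 15 called genes per direction without overlap, the called members and first 4 measured genes of 33 lists, the 5 leading genes per sign beyond the ectoderm, and the 5 most like Oc90; genes chosen after their values were seen are marked so. A further part of the rule is not reported here. Members and lists were chosen with earlier results of these data known. Alternatives changed normalization, weights, variance prior, probe sets, covariates and libraries.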

Additional observations from a re-analysis of the deposited data

Results flagged for a closer look

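In 14 of 188 tests of a gene or list within the 4 pit or the 6 vesicle libraries, 1 library lay far from the others by Dixon's criterion, where chance gives about 1 in 20. Pit 4 stood apart for Car4 (-0.09), Clrn1 (0.71) and the mean of Hox and hindbrain genes (0.33). Pit 2 stood apart for Krt23 (1.71), for Rwdd4a (0.09), and for the mean of macrophage markers (-0.08). Pit 1 stood apart for Gadd45g (5.39), and pit 3 for the mean of forebrain and midbrain markers (0.24). Among the vesicles, library 4 stood apart for Dkc1 (1.07), for the mean of axon guidance genes (0.35), and for that of glycolysis and hypoxia genes (0.75). Library 3 stood apart for Dek (-0.28), library 2 for Ramp2 (-3.38), and library 6 for the mean of FGF ligands (1.12).

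The difference between placode and surface ectoderm was itself different at E10.5 (pit) and E9.5 (vesicle) in 41 genes, by the contrast of both differences in limma. For the 5 largest of each sign among the genes named by this contrast, the values were 5.40 for Pitx1, 4.91 for Aldh1a3, 3.91 for Ociad2, 3.85 for Tnnt1 and 3.83 for Gchfr, and -4.31 for Ramp2, -3.23 for Nrep, -2.91 for Irx3, -2.32 for Sox9 and -2.26 for Sox10.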

How the results depend on the processing

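None of the 61 called genes picked for naming changed sign under an alternative run, but the number of calls moved. Estimating the spread from the compared libraries alone left 1 call of 179 (0 higher, 1 lower in the pit), and 5 when vesicles 3 and 5 were also left out (1 higher, 4 lower; an alternative chosen after seeing the data), among them Sox10. With the 5th percentile of each array as covariate 293 were called (156 higher, 137 lower), and without 11 widely spread arrays, also chosen after seeing the data, 573 (196 higher, 377 lower). Of these 11 arrays 0 were pits and 1 was a vesicle, library 3, so this run also left out a vesicle library that stood apart. Array weights gave 140 lower and leaving out vesicles 3 and 5 gave 157 lower, and the share of calls that were higher in the pit was 54.2% in the main fit, 43.1% with array weights, 32% without vesicles 3 and 5 and 34.2% without the wide arrays. Quantile normalization (226), a variance trend with a robust prior (177) and the mean of probe sets (184) kept the total within 1.5 times. Leaving out genes with a compared library at the lowest ratio kept 19937 of the 19938 genes, so its 179 calls could hardly differ. Leaving out 1 library gave 87 to 301 calls, 61 to 144 higher and 26 to 191 lower. Beyond the ectoderm's stage difference 41 genes became 26 with quantile normalization, 65 with array weights, 0 on the 4 groups alone, 74 without vesicles 3 and 5, 149 with the covariate, 62 with the neuroepithelium and 154 without the wide arrays, and 19 to 58 without 1 library. The stage differences gave 52 to 155 calls in ectoderm and 49 to 107 in neuroepithelium without 1 library. The cause of these moves was not tested.

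With the replicate number as a block, on the compared libraries alone, 0 genes were called by limma and 1053 passed an unadjusted p of 0.05. Deviations of same-numbered pit and vesicle libraries correlated at 0.007, -0.214, 0.217 and -0.035. These values cannot show whether such libraries share more than the number the labels give, so the block may not be a pairing.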
